A study of Sus scrofa with 8 samples.

Results

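The extracellular matrix and protease genes of the pig retina were followed through snRNAseq of AAV-injected and vehicle-injected eyes. The set was taken by symbol alone: every listed gene whose symbol starts with COL, LAMA, LAMB, LAMC, MMP, TIMP or ADAMTS followed by a digit. This gave 93 genes of 35683 listed features. By role they were 11 fibrillar collagens, 8 basement membrane collagens, 8 fibril-associated collagens, 13 other collagens, 11 laminin chains, 20 matrix metalloproteinases, 3 tissue inhibitors and 19 ADAMTS proteases. TIMP2 and LAMA2 are not among the symbols and were not analysed here.

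Collagens are secreted as trimers and laminins as heterotrimers of an alpha, a beta and a gamma chain, and type IV collagen and laminin together form the sheet of a basement membrane. In the retina the inner limiting membrane, on which the Müller glia and the astrocytes of the nerve fibre layer rest, is such a sheet, and the vitreous beyond it is built on type II, V/XI and IX collagen. Matrix metalloproteinases and ADAMTS proteases cleave matrix proteins or their precursors, and the TIMPs are secreted or matrix-bound inhibitors of these enzymes.

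All eyes were from female Yucatan minipigs, 3 to 5 months old by the study's methods, that had Vitrase, a hyaluronidase, injected into the vitreous of both eyes 2 weeks before dosing and methylprednisolone every week from shortly before it. Both eyes then received 5e11 vector genomes of AAV2.7m8/CAG-GFP, a capsid variant carrying GFP under a promoter active in most cells, or vehicle. At week 2 the retinas were both eyes of 1 AAV-injected animal (7221) and 1 vehicle-injected animal (7222), and at week 4 they were left eyes, from animals 7248 and 7249 with AAV and from 7250 and 7251 with vehicle. In all there were 8 retinas of 6 animals. The groups also carry 1 batch label each, so that batch and group cannot be told apart, and the methods give more than 1 day for the week 4 sacrifice without saying which animal had which. Every value below is a sum of UMIs over the nuclei of a class in a retina, divided by all UMIs of those nuclei and scaled to 1000000 UMIs (CPM). Week 4 values are given in the order 7248, 7249 for AAV and 7250, 7251 for vehicle.

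Of 388491 barcodes, 350537 were kept as nuclei after a mitochondrial filter, between 36282 and 49200 per retina, with total UMIs from 121544835 to 173614051. Any pair of lanes shared between 0.178% and 0.514% of the barcodes of the smaller lane. Nuclei were assigned to classes by marker-seeded profiles that left out the 93 genes, and between 2756 and 5594 nuclei per retina were assigned to none. The gate for astrocytes rested on PAX2, and the astrocyte markers GJA1 (3.86 to 20.3 CPM) and ALDH1L1 (2.33 to 11.3) were low in it, so this class is called PAX2+ and not named further; its nuclei held GFAP, an intermediate filament of astrocytes, at 633 to 1361 CPM against 44.3 to 393 in Müller nuclei. EGFP UMIs were found in Müller and PAX2+ nuclei of the AAV-injected retinas but not in those classes of the vehicle-injected retinas. In the week 2 vehicle-injected animal bipolar nuclei of 1 eye held 0.0397 CPM of EGFP and rods of the other 0.0394.

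The glial classes differed in number and depth between the arms at week 4. Müller nuclei numbered 2289 and 833 (4.73% and 1.78% of kept nuclei) in AAV-injected against 5291 and 5857 (12.1% and 14.2%) in vehicle-injected retinas, with median UMIs of 4985 and 5199 against 2025 and 1793. PAX2+ nuclei numbered 298 and 143 against 266 and 398, with medians of 9503 and 10364 against 4398 and 4143.5 UMIs. Lymphocytes numbered 1665 in 7248 and 1481 in 7249, and 10 or fewer in every other retina. A level in a class cannot tell a changed RNA in each nucleus from a changed mix of nuclei within the class.

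In the vehicle-injected animals the 2 glial classes expressed different matrix genes. Of 72 matrix and protease genes tested over 3 animals with edgeR's quasi-likelihood test (Benjamini-Hochberg adjustment over all genes), 23 were higher and 21 lower in Müller than in PAX2+ nuclei, where 18.8% of all tested genes were higher and 20.1% lower. Scaling by library size alone moved the median of all genes from 0.00 to -0.19 on the log2 scale, and every gene named here kept its direction under it. ADAMTS19 and ADAMTS18, orphan secreted proteases, were 54.1-fold and 51.4-fold higher in Müller nuclei (3273 ± 253 against 71.9 ± 12.8 CPM for ADAMTS19, and 1228 ± 112 against 28.2 ± 7.53 for ADAMTS18, SD over 4 vehicle-injected retinas, adjusted p = 5.89e-11 and 4.89e-10). The transmembrane collagen gene COL25A1 (47.5-fold), ADAMTS7, which cleaves cartilage oligomeric matrix protein (28.1-fold), and the laminin chain LAMA4 (25.9-fold) followed. PAX2+ nuclei were the higher class for MMP28, also called epilysin (33.2-fold, adjusted p = 5.84e-08), for ADAMTS14, a procollagen N-propeptidase (13.5-fold), for the membrane-type MMP15 (7.64-fold) and for ADAMTS10, which acts on fibrillin microfibrils (6.15-fold).

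Most type IV collagen chains were higher in PAX2+ than in Müller nuclei. Of 7 basement membrane collagens tested, 0 were higher and 5 lower in Müller nuclei by edgeR. The 5 were COL4A1, COL4A2, COL4A3, COL4A4 and COL4A6. In PAX2+ nuclei of the week 2 vehicle-injected animal they were at 3.61, 13.3, 4.96, 5.41 and 81.8 CPM in that order. Mural nuclei held them at 1225, 846, 1010, 298 and 140 CPM on average over the vehicle-injected retinas. The part of mural RNA in the glial values was not tested. The laminin chains were split, with 4 of 11 higher and 3 lower in Müller nuclei. The vitreal collagens were split. Per kb of gene span, COL9A1 was the highest of the 92 genes with an annotated length in Müller nuclei, at 15.0 CPM, against 12.2 in PAX2+ nuclei. It is a chain of type IX collagen, which coats type II fibrils. COL9A3, another chain of the same collagen, was the highest per kb in PAX2+ nuclei at 27.1 against 5.71 in Müller nuclei. COL2A1, the type II chain, lay at 3.98 and 2.13 per kb. These ranks depend on the division by span. In CPM over the week 4 vehicle-injected retinas, COL23A1 averaged 3749 in Müller nuclei against 1282 for COL9A1. In PAX2+ nuclei COL23A1 averaged 2062 against 565 for COL9A3. Without the week 2 vehicle-injected animal the call of COL4A3 was lost (adjusted p = 0.123), as it was without 7251 (adjusted p = 0.0666).

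At week 4, matrix genes changed in both directions in the Müller nuclei of AAV-injected retinas (edgeR's quasi-likelihood test, 2 against 2 retinas, Benjamini-Hochberg adjustment over all 18015 genes tested; an exact permutation test of 2 against 2 could not go below p = 0.333). Of 76 genes that passed the filter on low counts, 17 were higher and 11 lower, and 48 did not pass the threshold. The other 17 of the 93 did not pass the filter, and 1 of them had no UMI. Among all tested genes 11.8% were higher and 11.6% lower. The median log2 fold change was 0.08 over the 76 and -0.01 over all tested genes. The set as a whole took 1.51% and 1.35% of Müller UMIs in AAV-injected retinas against 1.51% and 1.50% in vehicle-injected retinas, so the arms overlapped. The arms lay apart in 4 of its 8 roles, of which the 3 collagen roles are given here with and without the gene that had the most UMIs. Fibril-associated collagens took 0.321% and 0.257% against 0.185% and 0.163%, of which COL9A1 alone took 0.288% and 0.236% against 0.138% and 0.118%. The summed share of the other 7 fibril-associated collagens went the opposite way, at 0.0331% and 0.0217% against 0.0467% and 0.0445%. Among these 7, COL12A1, COL16A1 and COL19A1 were called higher, and COL9A3 and COL22A1 lower. The collagens outside the fibrillar, basement membrane and fibril-associated roles took 0.309% and 0.305% against 0.436% and 0.489%, and without COL23A1 the other 12 took 0.0845% and 0.0857% against 0.0809% and 0.0945%, so those arms overlapped. Basement membrane collagens took 0.0229% and 0.0182% against 0.0125% and 0.0133%, and without COL4A5 the other 7 still lay apart, at 0.0122% and 0.00984% against 0.00740% and 0.00892%. The tissue inhibitors took 0.00795% and 0.00691% against 0.0102% and 0.00798%.

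**Figure D1:**
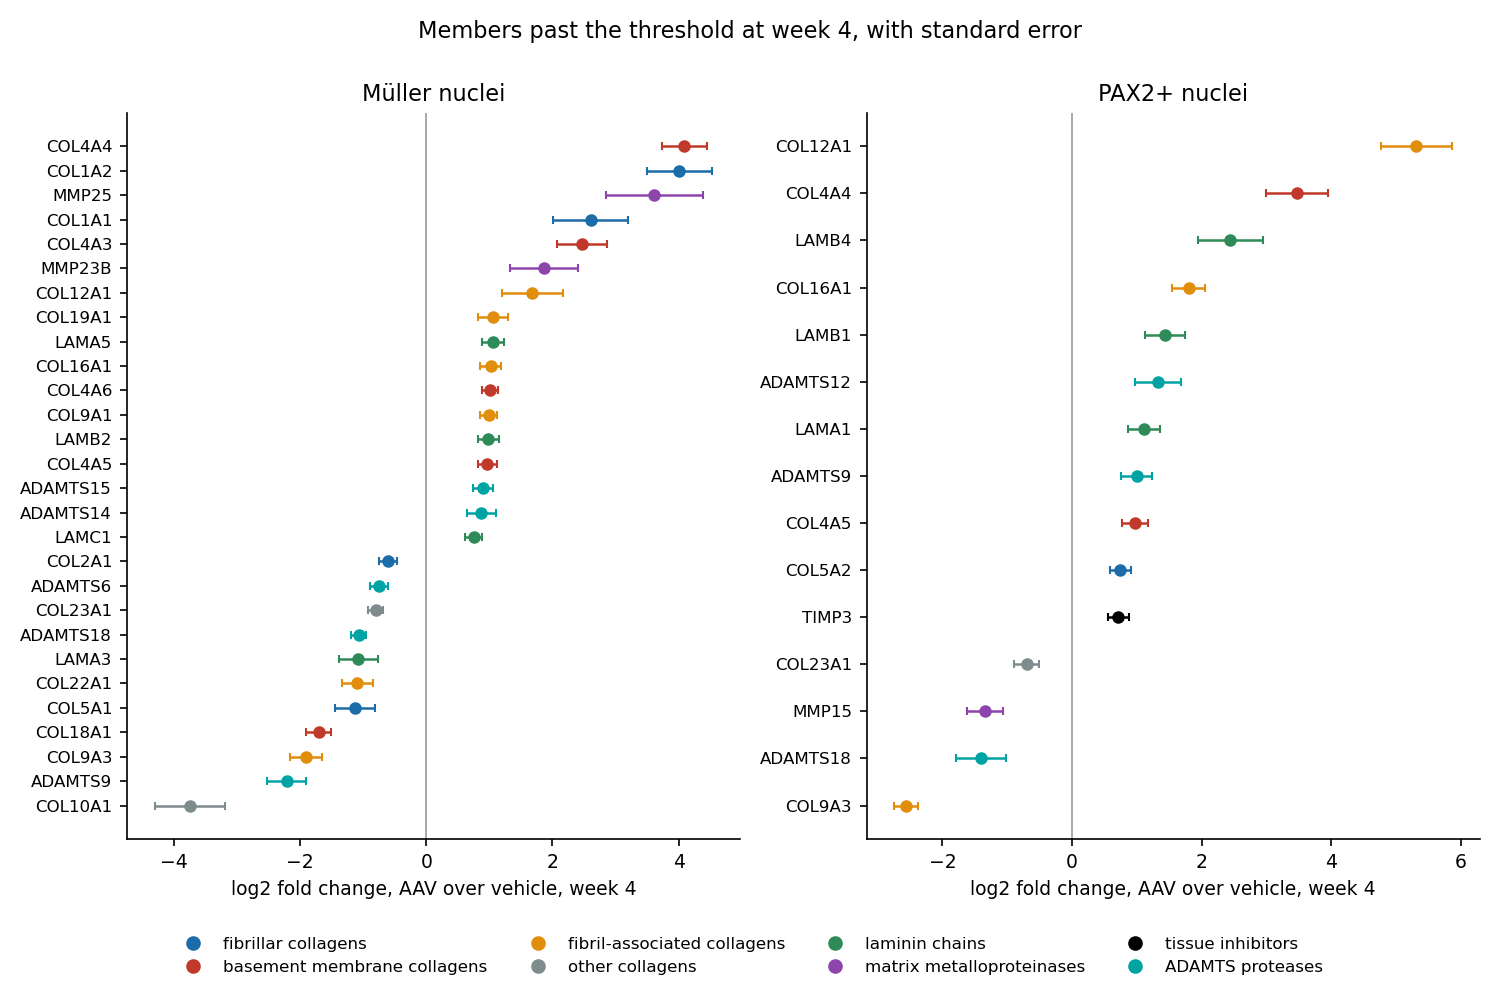
Log2 fold change at week 4 (AAV over vehicle, horizontal axis) with its standard error for each matrix or protease gene past the threshold in Müller nuclei (left, 28 genes) and PAX2+ nuclei (right, 15 genes), coloured by role. COL4A4 is the highest point in Müller nuclei at 4.09 and COL12A1 in PAX2+ nuclei at 5.31, and COL10A1 (-3.75) and COL9A3 (-2.56) are the lowest.

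Of the 6 type IV collagen chains, 4 rose in the Müller nuclei. The COL4A4 chain, which assembles with COL4A3 and COL4A5 in specialised basement membranes such as that of the kidney glomerulus, was at 26.1 and 14.3 CPM in AAV-injected against 1.09 and 1.26 in vehicle-injected retinas. The arms were far apart, and both AAV-injected retinas stood above every other retina of the series (log2 fold change 4.09 ± 0.36 SE, adjusted p = 0.000322). COL4A3 followed with 10.5 and 5.68 against 1.09 and 1.84 (2.47 ± 0.40, adjusted p = 0.00494). COL4A5 was at 107 and 83.6 against 50.8 and 43.8 (0.97 ± 0.15, adjusted p = 0.00382). COL4A6, the partner of COL4A5 in a different trimer, was at 67.4 and 63.6 against 31.2 and 32.1 (1.01 ± 0.12, adjusted p = 0.00149). Neither pair of arms overlapped. COL4A1 and COL4A2, the chains of the ubiquitous type IV trimer, were at 0.682 to 1.34 and 1.52 to 2.60 CPM in all 4 retinas and did not pass the threshold (log2 fold changes -0.20 ± 0.54 and -0.51 ± 0.41). A COL4A4 UMI was found in 254 of 2289 and 52 of 833 Müller nuclei of AAV-injected retinas against 12 of 5291 and 13 of 5857 of vehicle-injected retinas. The nuclei of the AAV-injected retinas were the deeper ones by the medians above.

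In PAX2+ nuclei the same chains were at 21.1 and 23.6 against 0.862 and 2.83 CPM for COL4A4 (96 UMIs against 6, a ratio of 10.7 with an exact 95% counting interval of 4.74 to 29.9, log2 fold change 3.47 ± 0.48, adjusted p = 0.00311) and at 126 and 102 against 67.2 and 55.4 for COL4A5 (0.97 ± 0.19, adjusted p = 0.0140). COL4A3 (1.39 ± 0.60, adjusted p = 0.161) and COL4A6 (0.46 ± 0.18, adjusted p = 0.134) had arms that did not overlap but missed the threshold by edgeR. Whether the 2 glial classes differed in these changes was not tested.

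**Figure D2:**
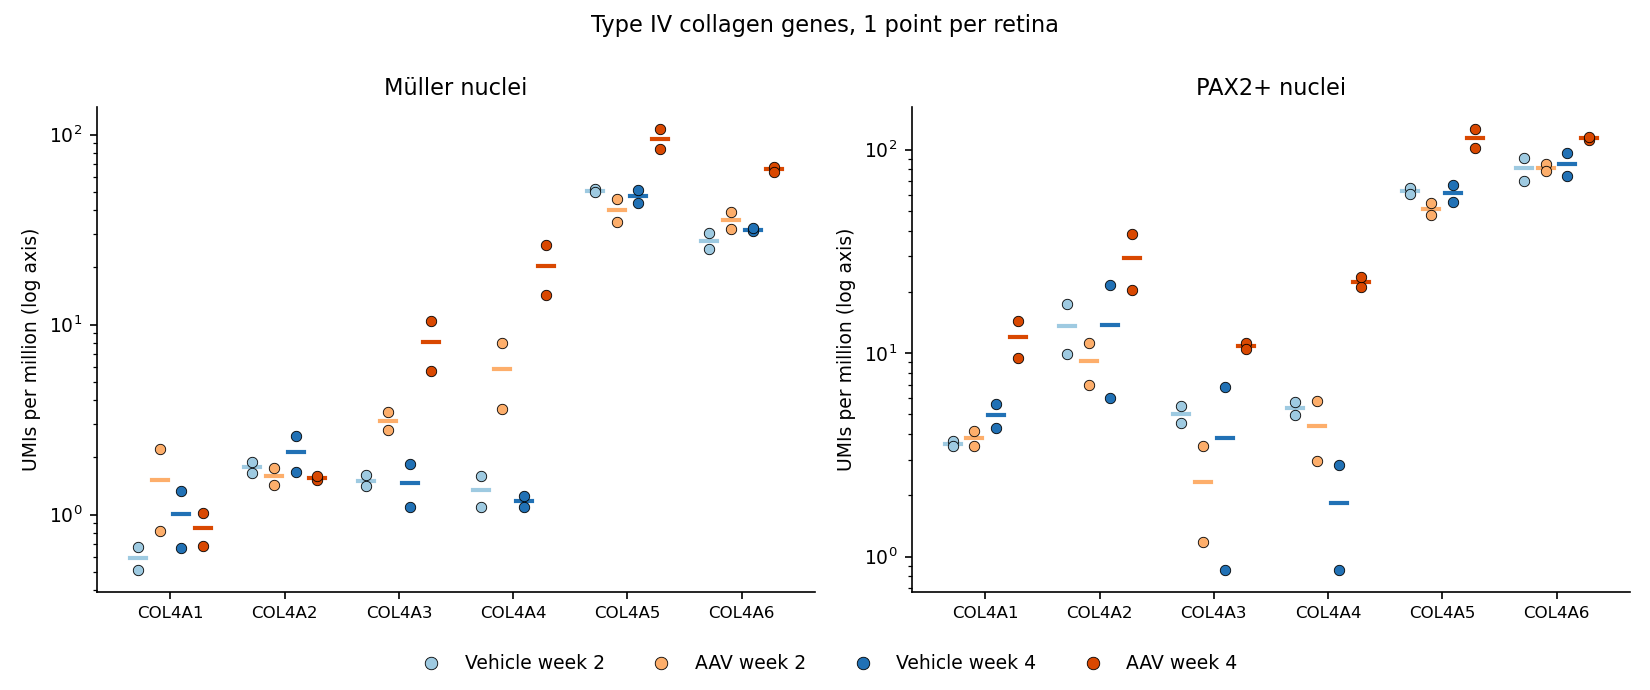
Level of the 6 type IV collagen genes in each retina (CPM, log axis) in Müller (left) and PAX2+ nuclei (right); points are retinas, bars the mean of each group. COL4A4 of the week 4 AAV-injected retinas (14.3 and 26.1 in Müller nuclei) lies above all other retinas, while COL4A1 and COL4A2 of the 4 week 4 retinas lie within 0.682 to 2.60 in Müller nuclei.

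The 6 type IV genes lie in head-to-head pairs in the RefSeq annotation of Sscrofa11.1. COL4A4 (chr15:128472228-128612302, minus strand) and COL4A3 (chr15:128611640-128763331, plus strand) overlap by 663 bases at their starts, COL4A1 and COL4A2 on chromosome 11 by 525 bases, and the annotated starts of COL4A6 and COL4A5 on the X chromosome are 207898 bases apart. Overlapping genes can share reads where counting ignores strand, and the part of shared reads in these values was not tested. The 250 bases before the annotated start of COL4A4 and of COL4A3, the pair that changed most, follow here, 5′ to 3′. Each window lies inside the other gene, and neither holds any of the 3 motifs searched (AP-1, the core of the interferon-stimulated response element, and NF-kB).
COL4A4 (chr15:128612303-128612552, minus strand): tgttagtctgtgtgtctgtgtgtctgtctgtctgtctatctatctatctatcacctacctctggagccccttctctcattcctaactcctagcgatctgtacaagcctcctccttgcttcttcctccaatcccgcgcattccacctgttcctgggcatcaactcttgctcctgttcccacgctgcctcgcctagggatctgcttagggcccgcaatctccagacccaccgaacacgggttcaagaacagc
COL4A3 (chr15:128611390-128611639, plus strand): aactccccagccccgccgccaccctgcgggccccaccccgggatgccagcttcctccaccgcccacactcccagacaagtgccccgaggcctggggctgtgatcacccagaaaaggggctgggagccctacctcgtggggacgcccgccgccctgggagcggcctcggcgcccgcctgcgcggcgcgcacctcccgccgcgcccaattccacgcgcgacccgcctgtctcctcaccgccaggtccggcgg

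COL18A1, the basement membrane collagen whose fragment is endostatin, went the other way in Müller nuclei: 15.1 and 12.05 CPM against 37.8 and 49.6, with no overlap (log2 fold change -1.70 ± 0.20, adjusted p = 0.00122). Of 10 laminin chains that passed the filter, 3 were higher and 1 lower. LAMA5, an alpha chain of basement membranes, was at 88.6 and 63.9 against 32.6 and 38.9 (1.06 ± 0.18, adjusted p = 0.00586). LAMB2 (23.4 and 22.0 against 12.01 and 10.3, 0.98 ± 0.17) and LAMC1 (58.6 and 67.7 against 36.5 and 36.1, 0.75 ± 0.13), the beta and gamma chains that can pair with LAMA5, were also higher, with adjusted p = 0.00578 and 0.00726 by edgeR. In each of these the AAV-injected retinas lay above both vehicle-injected retinas. LAMA3, an epithelial alpha chain, was at 19.3 and 13.6 against 24.4 and 44.2 (-1.08 ± 0.30, adjusted p = 0.0394), and this call was lost without 7248 (adjusted p = 0.0641), without 7249 (0.155) and without 7251 (0.115).

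The chains of type IX collagen moved apart. In Müller nuclei COL9A1 was at 2884 and 2357 CPM in AAV-injected against 1382 and 1181 in vehicle-injected retinas (log2 fold change 0.99 ± 0.14, adjusted p = 0.00271). COL9A3 was at 43.6 and 22.3 against 124 and 125 (-1.91 ± 0.25, adjusted p = 0.00206). The arms did not overlap for either gene. In PAX2+ nuclei COL9A3 was lower as well, at 105 and 77.2 against 573 and 557 (-2.56 ± 0.18, adjusted p = 0.000135). There COL9A1 was at 1455 and 1357 against 1152 and 852, which missed the threshold (0.55 ± 0.17, adjusted p = 0.0656). Whether the 2 glial classes differed in the change of either gene was not tested. A COL9A3 UMI was found in 48.7% and 44.8% of PAX2+ nuclei of AAV-injected retinas and in 83.5% and 77.6% of the shallower nuclei of vehicle-injected retinas. COL9A2 is not among the symbols and was not analysed here.

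**Figure D3:**
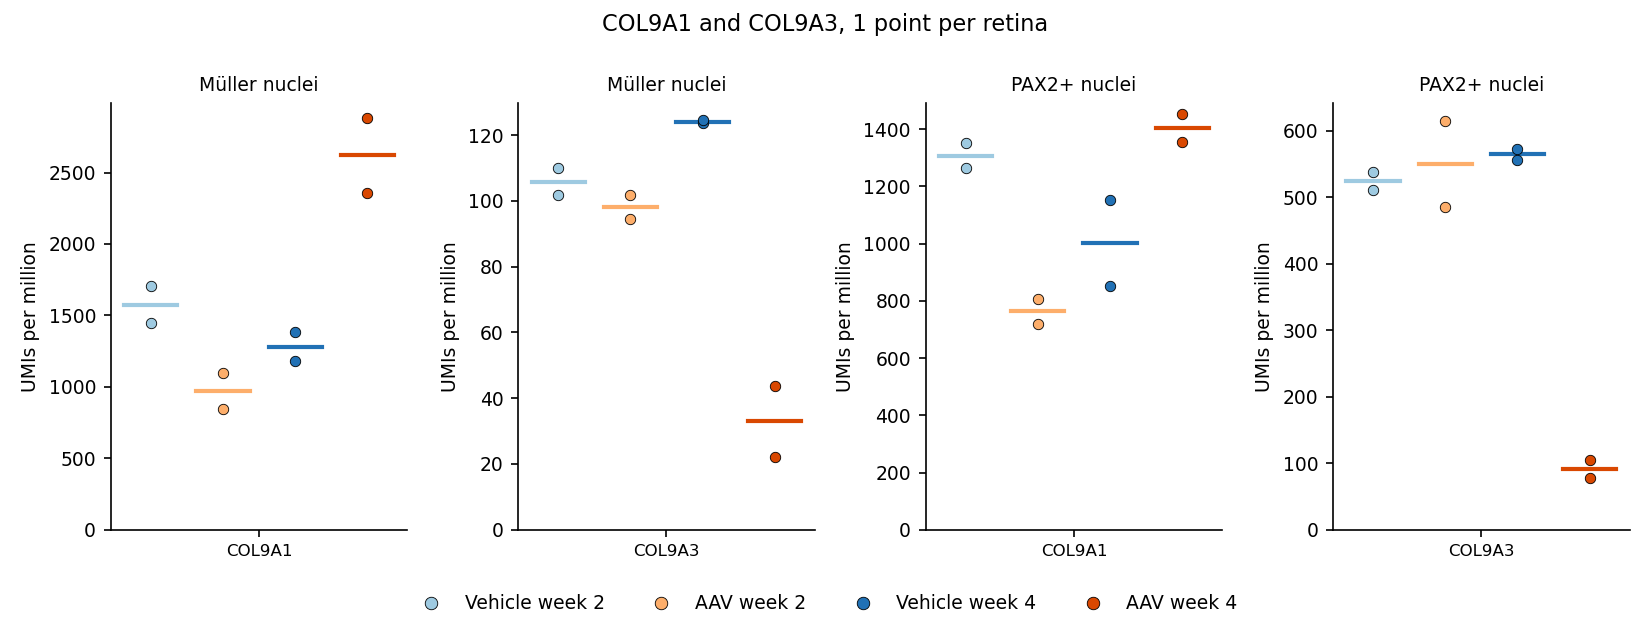
COL9A1 and COL9A3 in each retina (CPM, linear axis from 0) in Müller and PAX2+ nuclei; points are retinas, bars the mean of each group. At week 4 COL9A1 of Müller nuclei is at 2884 and 2357 in the AAV-injected retinas and at 1382 and 1181 in the vehicle-injected retinas, and COL9A3 of PAX2+ nuclei is at 105 and 77.2 against 573 and 557.

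Of the other fibril-associated collagens, COL16A1 was higher in Müller nuclei (69.1 and 69.8 against 28.2 and 37.9, log2 fold change 1.02 ± 0.17, adjusted p = 0.00513) and in PAX2+ nuclei (73.1 and 70.0 against 16.4 and 25.5, 1.80 ± 0.25, adjusted p = 0.00308), with the arms apart in both. COL12A1, which binds type I fibrils in tendon and scar, gave the largest change of the set. In PAX2+ nuclei it was at 45.7 and 36.0 CPM against 0 and 1.70, that is 185 UMIs against 3 (ratio 41.3, exact 95% counting interval 13.9 to 202), and edgeR gave a log2 fold change of 5.31 ± 0.55 (adjusted p = 0.000828). Its UMIs came from 39 of 298 and 17 of 143 nuclei, with up to 23 UMIs in a nucleus in each of the AAV-injected retinas. The interval takes each UMI as independent, so it leaves out this clustering and the spread between animals. In Müller nuclei COL12A1 was at 7.28 and 2.50 against 1.34 and 1.84 (1.68 ± 0.49, adjusted p = 0.0432), a call that was lost without 7248 (adjusted p = 0.527) and without 7250 (0.0745). Mural nuclei held COL12A1 at 41.5 and 695 CPM in the same AAV-injected retinas against 0 and 29.0 in the vehicle-injected retinas. These rest on 3 and 89 against 0 and 7 UMIs, with 16 and 28 mural nuclei in the AAV-injected retinas. At week 2 mural nuclei held it at 0 and 23.3 CPM with AAV against 35.4 and 313 with vehicle. Lymphocytes of the week 4 AAV-injected retinas held it at 15.9 and 5.64. The same lymphocytes held COL19A1 at 79.5 and 52.1 CPM. Myeloid nuclei held COL19A1 at 26.0 and 9.14 in the week 4 AAV-injected retinas against 0 and 0 in the vehicle-injected retinas. The part of RNA from other cells in the PAX2+ and Müller values of COL12A1 and COL19A1 was not tested. COL19A1 was higher (32.6 and 25.7 against 16.9 and 10.6, 1.06 ± 0.24, adjusted p = 0.0169, and 0.0905 without 7248) and COL22A1, a collagen of tissue junctions, lower in Müller nuclei (174 and 93.0 against 293 and 266, -1.09 ± 0.25, adjusted p = 0.0177), and the arms were apart for each.

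Type I collagen, the main collagen of scar tissue, was close to absent from the Müller nuclei of 6 of the retinas. COL1A2 was at 2.71 and 3.41 CPM in AAV-injected against 0.168 and 0.167 in vehicle-injected retinas at week 4, from 47 against 4 UMIs (ratio 17.3, exact 95% counting interval 6.32 to 66.0, log2 fold change 4.01 ± 0.52, adjusted p = 0.00192). COL1A1 was at 2.79 and 1.14 against 0.420 and 0.251, from 38 against 8 UMIs (ratio 6.98, interval 3.21 to 17.3, 2.61 ± 0.59, adjusted p = 0.0180, and 0.0559 without 7251). The arms did not overlap for either chain. The UMIs of COL1A2 were spread over 26 and 11 nuclei with at most 3 UMIs in a nucleus. Mural nuclei held 221 and 93.7 CPM of COL1A2 in the same AAV-injected retinas (16 and 12 UMIs) and 0 and 49.8 in the vehicle-injected retinas (0 and 12 UMIs). The summed level of the 10 mural markers in Müller nuclei was 156 and 153 against 163 and 148, and that of the 7 fibroblast markers 29.7 and 32.7 against 52.5 and 56.5. The arms overlapped for the mural list, and the fibroblast list was lower in both AAV-injected retinas. The part of mural or fibroblast RNA in the type I collagen values was not tested.

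Of 9 fibrillar collagens tested in Müller nuclei, 2 were higher and 2 lower. COL2A1 was at 90.6 and 83.2 against 147 and 110 CPM in Müller nuclei (log2 fold change -0.61 ± 0.15, adjusted p = 0.0241), a call lost without 7248 (adjusted p = 0.0780), 7249 (0.114) or 7250 (0.0965). COL5A1, a chain that regulates fibril diameter, was at 275 and 170 against 326 and 619 (-1.13 ± 0.32, adjusted p = 0.0398), and this call was lost without 7249 (adjusted p = 0.177) and without 7251 (0.0648). COL11A1, the type XI chain of the same fibrils, did not pass the threshold (0.10 ± 0.16). In PAX2+ nuclei COL5A2 was higher, at 187 and 203 against 128 and 114 (0.75 ± 0.16, adjusted p = 0.0163, and 0.0660 without 7251).

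Among the other collagens, COL23A1, a transmembrane collagen, fell from 3554 and 3945 CPM in vehicle-injected to 2246 and 2189 in AAV-injected retinas (log2 fold change -0.80 ± 0.12, adjusted p = 0.00381). In PAX2+ nuclei it was at 1249 and 1182 against 2465 and 1660 (-0.70 ± 0.19, adjusted p = 0.0455, and 0.140 without 7250). COL10A1, the network collagen of growth plate cartilage, was at 0.169 and 0.682 against 4.12 and 4.52 in Müller nuclei, from 5 against 103 UMIs (14.0 times lower, exact 95% counting interval 5.81 to 44.1, -3.75 ± 0.55, adjusted p = 0.00334). Rods held COL10A1 at 1.58 and 2.14 against 1.85 and 3.77 in the same retinas, so the arms overlapped there.

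Of 17 ADAMTS proteases that passed the filter in Müller nuclei, 2 were higher and 3 lower. ADAMTS9, which cleaves versican and aggrecan, was at 7.87 and 7.05 CPM in AAV-injected against 44.3 and 23.9 in vehicle-injected retinas (log2 fold change -2.22 ± 0.30, adjusted p = 0.00239). In PAX2+ nuclei the same gene was higher, at 65.3 and 50.4 against 34.5 and 27.2 (1.00 ± 0.24, adjusted p = 0.0286), a call that was lost without 7248 (adjusted p = 0.102) and without 7251 (0.107); the difference between the classes was not tested. ADAMTS18 fell in Müller nuclei from 1277 and 1363 to 646 and 647 (-1.07 ± 0.11, adjusted p = 0.000732), whereas ADAMTS19 was at 3826 and 3190 against 3569 and 3022 and did not pass the threshold (0.05 ± 0.14). ADAMTS6 was lower (105 and 134 against 192 and 197, -0.75 ± 0.14, adjusted p = 0.00964) and ADAMTS15, a cleaver of versican and aggrecan, higher (40.8 and 36.4 against 19.0 and 21.3, 0.90 ± 0.15, adjusted p = 0.00565). ADAMTS14 was at 10.8 and 8.41 against 5.46 and 4.94 (0.87 ± 0.23, adjusted p = 0.0320), and the call was lost without 7248 (adjusted p = 0.195), 7250 (0.0587) or 7251 (0.0952). The arms did not overlap for any of these but ADAMTS19.

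Of 13 matrix metalloproteinases that passed the filter in Müller nuclei, 2 were higher and 0 lower by edgeR. MMP25, a membrane-anchored protease of leukocytes, was at 2.54 and 1.82 CPM against 0.336 and 0, from 38 against 4 UMIs (ratio 14.0, exact 95% counting interval 5.03 to 53.9, log2 fold change 3.62 ± 0.77, adjusted p = 0.0144). Lymphocytes of the AAV-injected retinas held MMP25 at 9.82 and 7.98 CPM, and the summed level of the 18 lymphocyte markers (17 of them with a UMI) in Müller nuclei was 99.5 and 96.1 against 66.4 and 50.6; their part in the MMP25 value was not tested. MMP23B was at 9.14 and 4.32 against 2.94 and 0.837 (1.87 ± 0.54, adjusted p = 0.0440), a call lost without 7248 (adjusted p = 0.330) and without 7251 (0.0612). MMP9, the gelatinase of neutrophils and macrophages, did not pass the filter in either glial class, and in myeloid nuclei it had 1 UMI over all 8 retinas.

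No TIMP passed the threshold in Müller nuclei at week 4 by edgeR. TIMP1, the inducible inhibitor, was at 11.5 and 11.8 CPM against 5.46 and 8.37 (log2 fold change 0.70 ± 0.26, adjusted p = 0.0881) and TIMP3, which binds the matrix, at 64.1 and 54.5 against 93.5 and 68.2 (-0.48 ± 0.17, adjusted p = 0.0752), with the arms apart but the threshold missed. TIMP4 was at 3.81 and 2.73 against 3.44 and 3.27 (-0.03 ± 0.31). In PAX2+ nuclei TIMP3 was higher, at 194 and 154 against 109 and 112.6 (0.72 ± 0.17, adjusted p = 0.0264), and this was lost without 7248 (adjusted p = 0.123), 7250 (0.0849) or 7251 (0.0561). TIMP4 (-1.05 ± 0.36, adjusted p = 0.0917) and TIMP1 (0.75 ± 0.42, adjusted p = 0.275) did not pass there.

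In the PAX2+ nuclei 52 genes of the set passed the filter, of which 11 were higher and 4 lower (7.64% and 6.43% of 11800 genes tested were higher and lower). The median log2 fold change was 0.51 over the 52 genes and -0.00 over all tested genes. Laminin chains made up 3 of the genes that rose. LAMB4, a rarely described beta chain, was at 63.9 and 66.1 CPM against 2.59 and 19.8 (2.44 ± 0.50, adjusted p = 0.0149). LAMA1, the alpha chain of the earliest basement membranes, was at 299 and 186 against 97.4 and 136 (1.11 ± 0.25, adjusted p = 0.0209, and 0.0698 without 7250), and LAMB1 was at 24.9 and 22.9 against 9.48 and 9.05 (1.43 ± 0.31, adjusted p = 0.0189, and 0.0542 without 7251). The AAV-injected retinas lay above the vehicle-injected retinas in all 3. ADAMTS12 was at 131 and 72.0 against 27.6 and 55.4 (1.33 ± 0.36, adjusted p = 0.0425), a call lost without 7248 (adjusted p = 0.0716) and without 7250 (0.113). ADAMTS18 (10.5 and 7.20 against 32.8 and 19.2, -1.40 ± 0.38, adjusted p = 0.0446, and 0.188 without 7250) and MMP15 (16.5 and 18.3 against 36.2 and 54.3, -1.35 ± 0.28, adjusted p = 0.0162, and 0.0759 without 7251) were lower. ADAMTS18 of PAX2+ nuclei stood at 1.97% of its Müller level in vehicle-injected retinas, and the part of free Müller RNA in it was not tested.

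Genes that build or bind the matrix, listed by role and not members of the set, were read beside it. Among all tested genes 11.8% were higher and 11.6% lower in Müller nuclei, and 7.64% and 6.43% in PAX2+ nuclei. The lists are small, and a count near these shares is no result about the list. Of 14 collagen synthesis and cross-linking genes tested in Müller nuclei 5 were higher and 0 lower by edgeR, with LOXL2, a collagen cross-linking oxidase, at 125 against 50.7 CPM on average (log2 fold change 1.26 ± 0.12). In PAX2+ nuclei 1 of 12 was higher, again LOXL2 (119 against 14.4, 3.07 ± 0.28, adjusted p = 0.000495). Of the basement membrane and adhesive glycoproteins 4 of 15 were higher and 1 lower in Müller nuclei (AGRN, NID1, THBS1 and FBLN5 higher, FBLN2 lower at -2.94 ± 0.21) and 5 of 14 higher in PAX2+ nuclei, among them FN1, fibronectin, at 430 against 110 (2.03 ± 0.16, adjusted p = 0.000232). Of matrix receptors 3 of 15 were higher and 3 lower in Müller nuclei and 2 of 14 higher in PAX2+ nuclei. Of TGF-beta genes 2 of 11 were higher and 3 lower in Müller nuclei, and 3 of 10 higher and 3 lower in PAX2+ nuclei, with TGFBR2 higher and TGFB2 and TGFBR3 lower in both. Of proteoglycan and hyaluronan genes CD44, the hyaluronan receptor, was the 1 called, higher in both classes; it was 1 of 4 tested in Müller and 1 of 3 in PAX2+ nuclei.

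At week 2 there was 1 animal per arm and therefore no test; a gene is given here as past 2-fold where all 4 retinas were apart and the animals had at least 20 UMIs together. In Müller nuclei 11 genes of 80 were past 2-fold higher and 5 lower in the AAV-injected animal, where 7.49% of all genes considered were higher and 3.99% lower. COL4A4 stood at 8.004 and 3.61 CPM in the 2 AAV-injected eyes against 1.59 and 1.10, and COL16A1 at 74.2 and 121 against 32.8 and 36.7, so that both already lay above the vehicle-injected animal. TIMP1 was at 11.3 and 17.2 against 5.69 and 5.06. MMP3, the broad-acting stromelysin, was at 2.06 and 5.73 against 0.429 and 0.586, and MMP20, the enamel protease, at 0.951 and 2.89 against 0.490 and 0.147 (68 against 10 UMIs, ratio 6.37, exact 95% counting interval 3.26 to 13.9). COL11A2 was lower, at 0.159 and 0.103 against 1.47 and 1.98 (4 against 51 UMIs, 13.6 times lower, interval 5.00 to 51.9). These intervals cover counting error only. With the left eyes alone 4 genes of 74 were past 2-fold higher, and 994 of all 17976 genes considered.

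In PAX2+ nuclei at week 2, 6 genes of 61 were past 2-fold higher and 5 lower (4.35% and 3.92% of all genes considered). COL16A1 was again higher (57.4 and 100.3 against 29.2 and 28.4 CPM), and TIMP3 was lower, at 69.8 and 74.7 against 163 and 161, with the 4 eyes apart. LAMB3, a beta chain of epithelial laminin, was at 9.46 and 12.8 against 2.06 and 0.996 (27 against 7 UMIs, ratio 6.72, exact 95% counting interval 2.85 to 18.3). COL4A4 and COL12A1, the genes that stood out at week 4, had log2 ratios of -0.46 and 0.80 at week 2. COL4A4 was at 2.96 and 5.83 against 5.76 and 4.98, and COL12A1 at 0.591 and 8.17 against 1.65 and 1.99. The arms overlapped for both genes. COL12A1 had 16 UMIs in all, under the minimum of UMIs set for week 2, so no change is read from its ratio.

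Set side by side, 10 of the 17 genes higher in Müller nuclei at week 4 had a log2 ratio under 0 at week 2. Among them were COL9A1 (-0.75), ADAMTS15 (-0.46) and COL4A5 (-0.38). Of all 2125 genes higher at week 4, 25.8% had such a ratio. The count set no minimum of UMIs at week 2 and includes COL1A1 and COL1A2, which were close to absent there. Of the 11 genes lower at week 4, 10 were also under 0 at week 2, all but COL18A1 (0.18), where 61.6% of all 2081 genes lower at week 4 were. The difference between weeks was tested as an interaction of treatment and week over the 6 animals, in which the week 2 animals are assumed to vary like those of week 4. In Müller nuclei 5 genes of 79 passed (3.3% of all genes tested): COL9A1 (difference of log2 fold changes 1.80 ± 0.23, adjusted p = 0.0126), ADAMTS15 (1.41 ± 0.26, adjusted p = 0.0340) and COL4A5 (1.40 ± 0.26, adjusted p = 0.0349) were higher at week 4 relative to week 2, and COL18A1 (-1.82 ± 0.32, adjusted p = 0.0307) and COL10A1 (-3.67 ± 0.77, adjusted p = 0.0464) lower. In PAX2+ nuclei 2 of 61 passed (1.11% of all genes tested): COL9A3 (-2.55 ± 0.29, adjusted p = 0.00687) and TIMP3 (1.92 ± 0.31, adjusted p = 0.0228). TIMP3 was thus lower in the AAV-injected animal at week 2 and higher in the AAV-injected animals at week 4.

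**Figure D4:**
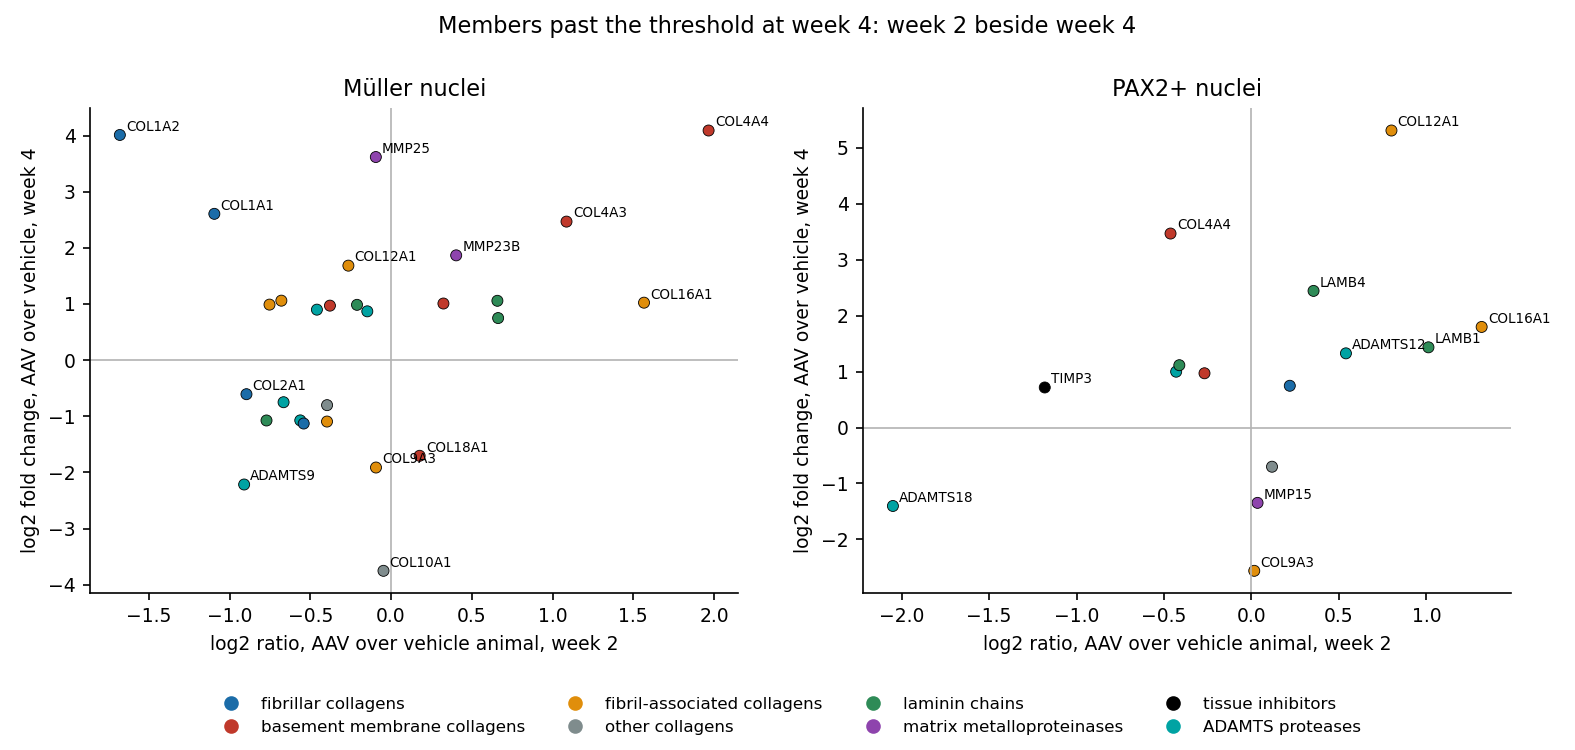
Genes past the threshold at week 4 in Müller (left) and PAX2+ nuclei (right), placed by their log2 ratio at week 2 (horizontal axis, 1 animal per arm) and log2 fold change at week 4 (vertical axis, 2 animals per arm), coloured by role; the more extreme genes are named. In Müller nuclei COL4A4 (1.97 and 4.09), COL4A3 and COL16A1 lie to the upper right, while COL1A2 (-1.68 and 4.01) and COL1A1 lie to the upper left. Both type I collagen chains were close to absent from Müller nuclei at week 2.

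Fitted over both weeks with week as a term (3 against 3 animals), 8 matrix genes were higher and 5 lower in Müller nuclei by edgeR, where 7.04% of all genes tested were called. COL4A4 (log2 fold change 3.25 ± 0.49, adjusted p = 0.0111), COL4A3, COL4A6, COL16A1, LAMA5, LAMC1, MMP3 (2.21 ± 0.46, adjusted p = 0.0334) and MMP20 (2.05 ± 0.42, adjusted p = 0.0313) were higher, and ADAMTS9 (-1.75 ± 0.34), ADAMTS18, ADAMTS6, COL2A1 and COL23A1 lower. MMP3 and MMP20 stayed under 6 CPM in every retina. In PAX2+ nuclei COL16A1 was higher (1.62 ± 0.22, adjusted p = 0.00815) and ADAMTS18 lower (-1.64 ± 0.32, adjusted p = 0.0408), where 2.03% of all genes tested were called. Left out 1 at a time, the week 4 retinas left between 2 and 6 of the 13 calls in Müller nuclei; without 7248 or 7249 2 were left, without 7251 3 and without 7250 6. In PAX2+ nuclei ADAMTS18 was not called in any of these fits, and COL16A1 was not called without 7251.

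Genes of the set were also called outside the glia at week 4. In rods 3 of 71 were higher and 11 lower (10.1% of all genes tested were called). COL16A1 was at 13.1 and 8.41 CPM against 1.39 and 2.38 (log2 fold change 2.59 ± 0.34, adjusted p = 0.00785), COL4A1 at 1.86 and 1.86 against 0.277 and 0.492 (2.37 ± 0.40) and COL21A1 at 6.02 and 11.7 against 2.40 and 2.62 (1.86 ± 0.37), with the arms apart in each. The calls of COL4A1 and COL21A1 were lost without 7249 (adjusted p = 0.0741 and 0.0742) and without 7250 (0.0900 and 0.0838). Of the genes lower in rods, ADAMTS18 (0.993 and 0.749 against 6.15 and 10.4, -3.21 ± 0.34, adjusted p = 0.00398) and ADAMTS19 (4.96 and 1.75 against 21.9 and 26.6, -2.84 ± 0.44, adjusted p = 0.0129) stood at 0.628% and 0.735% of their Müller level in vehicle-injected retinas. The lower calls of ADAMTS10, COL4A5, TIMP3, LAMA1, COL2A1 and COL5A2 in rods were each lost in some fits that left out 1 retina. Their log2 fold changes in those fits ran from -2.05 to -0.71. COL8A1 and ADAMTS10 aside, the genes lower in rods stood at 7.07% or less of their Müller level in vehicle-injected retinas. Müller nuclei gave 7.35% and 2.70% of all UMIs in AAV-injected against 9.18% and 9.82% in vehicle-injected retinas; the part of free Müller RNA in these values was not tested. COL8A1, a short-chain collagen, was above its Müller level in rods and was lower as well (5.85 and 3.77 against 12.02 and 19.4, -1.67 ± 0.30, adjusted p = 0.0198, and 0.0931 without 7249).

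**Figure D5:**
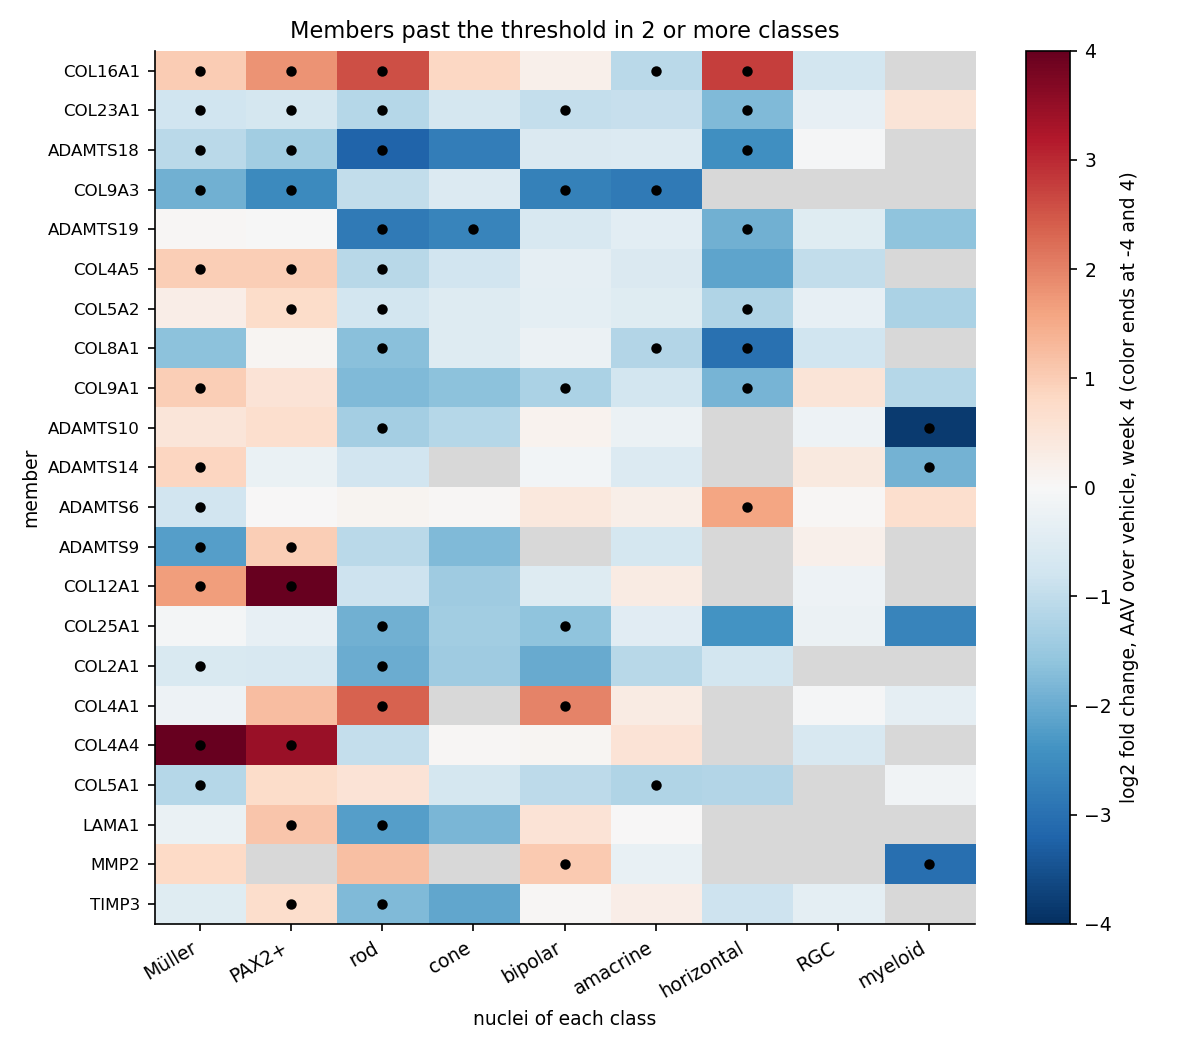
Log2 fold change at week 4 (AAV over vehicle, colour, ends at -4 and 4) of the 22 genes past the threshold in 2 or more of the 9 classes tested; dots mark the classes in which a gene passed, and grey a gene that did not pass the filter on low counts. COL16A1 is dotted as higher in Müller, PAX2+, rod and horizontal nuclei and as lower in amacrine nuclei, and COL23A1 as lower in 5 classes.

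In bipolar nuclei 3 of 71 were higher and 4 lower (3.21% of all genes tested were called). COL4A1 was at 5.14 and 5.01 CPM against 1.22 and 1.40 (log2 fold change 1.97 ± 0.23, adjusted p = 0.00883). MMP2, the type IV collagenase, was at 23.9 and 18.1 against 9.52 and 11.0 (1.06 ± 0.18, adjusted p = 0.0298), and COL5A3 was at 261 and 251 against 194 and 186 (0.45 ± 0.08, adjusted p = 0.0347). Of the lower genes, COL9A3 changed most, at 0.421 and 0.253 against 2.10 and 2.39 (-2.71 ± 0.37, adjusted p = 0.0150). COL25A1 (-1.62 ± 0.25), COL9A1 (-1.27 ± 0.21) and COL23A1 (-0.96 ± 0.11) were also lower. These 4 stood at 1.81% or less of their Müller level in vehicle-injected retinas. In amacrine nuclei 1 of 77 was higher and 5 lower (3.01%): COL28A1, a microfibrillar collagen of nerve sheaths, rose to 17.3 and 14.0 from 5.28 and 3.36 (1.88 ± 0.23, adjusted p = 0.00468), and it stood at 7.19 and 9.18 against 4.27 and 3.81 at week 2. COL9A3 was lower here too, at 0.461 and 0.355 against 2.64 and 3.32 (-2.83 ± 0.33, adjusted p = 0.00334) and at 2.40% of its Müller level in vehicle-injected retinas. Also lower were COL5A1 (-1.22 ± 0.25), COL8A1 (-1.17 ± 0.20), COL16A1 (-1.07 ± 0.17) and LAMB3 (-0.79 ± 0.15). In horizontal nuclei 3 of 31 were higher and 6 lower (4.78%). COL16A1 was higher (20.4 and 30.7 against 2.21 and 4.82, 2.76 ± 0.42, adjusted p = 0.00900), as was ADAMTS6 (80.6 and 68.3 against 31.8 and 16.9, 1.57 ± 0.28, adjusted p = 0.0190), the latter opposite to Müller nuclei. COL6A3, a chain of the microfibrillar type VI collagen, was at 32.7 and 42.6 against 17.65 and 17.68 (1.03 ± 0.23, adjusted p = 0.0467). The change of the lower COL8A1 was larger, from 23.8 and 9.65 to 3.27 and 0.917 (-2.97 ± 0.64, adjusted p = 0.0394), and ADAMTS18 was at 4.50 and 5.04 against 32.2 and 18.5 (-2.45 ± 0.39, adjusted p = 0.0112). ADAMTS19 (-1.91 ± 0.44), COL9A1 (-1.85 ± 0.41), COL23A1 (-1.78 ± 0.32) and COL5A2 (-1.21 ± 0.26) were lower as well. COL8A1 aside, the 6 lower genes stood at 3.10% or less of their Müller level in vehicle-injected retinas. The part of free Müller RNA in the lower values of these 3 classes was not tested. The arms did not overlap for any gene of this paragraph, which was a condition for those named by the size of their change. Without 7250 the calls of COL5A3 (adjusted p = 0.144) and MMP2 (0.143) in bipolar nuclei were lost, as without 7251 (0.186 and 0.0839). In bipolar nuclei the calls of COL9A3 (0.0546 and 0.0672) and COL9A1 (0.0916 and 0.0914) were lost without 7250 or 7251, and those of COL25A1 (0.0861) and COL23A1 (0.0508) without 7251. In amacrine nuclei LAMB3 was lost in each of the 4 fits that left out a retina (adjusted p from 0.0727 to 0.105), COL8A1 without 7248, 7249 or 7251 (0.0535 to 0.0910) and COL5A1 without 7249 or 7251 (0.131 and 0.0593). In horizontal nuclei all 6 lower calls were lost without 7250 (0.0577 to 0.255), COL8A1 also without 7249 (0.0543), and COL6A3 without 7249, 7250 or 7251 (0.116 to 0.212).

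In RGCs 2 of 51 were higher and 1 lower (4.38% of all genes tested were called). COL24A1, a fibrillar collagen of developing bone and cornea, was at 92.7 and 115 CPM against 41.1 and 59.1 (log2 fold change 1.10 ± 0.17, adjusted p = 0.00249). At week 2 it was at 44.8 and 35.9 against 69.7 and 46.5, and the difference between weeks passed the threshold (1.62 ± 0.29, adjusted p = 0.0278), where 0.265% of all genes tested did. MMP17 was higher (9.36 and 11.4 against 4.33 and 3.40, 1.48 ± 0.37, adjusted p = 0.0377, lost without 7249 at 0.127 and without 7251 at 0.157) and LAMA4 lower (12.7 and 14.6 against 22.7 and 41.1, -1.18 ± 0.28, adjusted p = 0.0293, and 0.309 without 7251). In cones 0 of 59 were higher and 1, ADAMTS19, lower (1.53%), at 2.65 and 1.49 against 9.14 and 17.0, which was 0.397% of its Müller level in vehicle-injected retinas.

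Myeloid nuclei numbered 1701 and 1020 in AAV-injected against 101 and 92 in vehicle-injected retinas at week 4, so the class is in large part made of nuclei that the vehicle-injected retinas did not hold in such number. Of 29 genes of the set that passed the filter 0 were higher and 4 lower (8.03% of all genes tested were called; the median over all genes tested was 0.12). ADAMTS10 was at 9.45 and 7.25 CPM against 195 and 75.9 (log2 fold change -3.84 ± 0.49, adjusted p = 0.00534) and ADAMTS14 at 79.7 and 60.5 against 296 and 283 (-1.89 ± 0.23, adjusted p = 0.00410). MMP2 was at 6.45 and 9.45 against 86.6 and 55.2 (-3.01 ± 0.48, adjusted p = 0.0115) and MMP28 at 3.46 and 4.73 against 21.6 and 34.5, the latter from 8 UMIs in vehicle-injected retinas (-2.64 ± 0.57, adjusted p = 0.0366). The arms were apart for all 4, and the vehicle-injected values rest on 20 UMIs or fewer for MMP2 and MMP28. Without 7248, 7249 or 7250 the call of MMP2 was lost (adjusted p = 0.296, 0.356 and 0.0811), and without 7250 or 7251 that of MMP28 (0.124 and 0.312). For ADAMTS10 the difference between weeks passed the threshold (-3.40 ± 0.63, adjusted p = 0.0233), where 1.55% of all genes tested did; at week 2 it was at 73.7 and 79.4 against 132 and 81.8.

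Counts across classes were not made for all genes tested, so those of the set stand without a background. Across the 9 classes 50 of the 83 genes tested somewhere were called in at least 1 class, 28 in 1 class and 22 in 2 or more. Of these 22, 10 were higher in a class and lower in another. COL23A1 was lower in 5 classes and ADAMTS18 and COL9A3 in 4 each. In the non-glial classes where COL23A1, ADAMTS18 and COL9A3 were lower, they stood at 2.40% or less of their Müller level in vehicle-injected retinas. The part of free Müller RNA in those values was not tested. COL16A1 was higher in 4 classes and lower in amacrine nuclei (10.2 and 11.0 against 5.42 and 4.62 CPM in AAV-injected retinas, log2 fold change -1.07 ± 0.17, adjusted p = 0.0154 by edgeR, and -0.96 without 7249).

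The upstream sequence of these genes was read on Sscrofa11.1 (RefSeq annotation, 92 of the 93 genes found). In the 250 bases before the annotated start, AP-1 (TGACTCA or TGAGTCA, either strand) was found for 6 genes of 92 (6.52%, against 3.04% of 20664 protein-coding genes): COL17A1, LAMB1, MMP12, MMP19, MMP3 and MMP9. The core of the interferon-stimulated response element (GAAANNGAA, either strand) was found for 7 (7.61% against 6.93%): ADAMTS12, ADAMTS6, COL11A2, COL28A1, COL8A1, MMP20 and MMP24. The NF-kB motif was found for 0 of the 92 and in 0.624% of all. Such a match is a string of letters and not a binding site. Genes with a match that were past 2-fold higher at week 2 alone, among them MMP12 (Müller) and COL8A1 (PAX2+ nuclei and RGCs), are not printed. COL8A1 was lower in amacrine, horizontal and rod nuclei at week 4. Printed 5′ to 3′ with the match in capitals are windows of genes called higher by edgeR in some class, at week 4 or over both weeks. With AP-1 these are LAMB1 (PAX2+ nuclei) and MMP3 (Müller nuclei over both weeks). With the response element core they are COL28A1 (amacrine), ADAMTS6 (horizontal, though lower in Müller nuclei), ADAMTS12 (PAX2+) and MMP20 (Müller over both weeks).
LAMB1 (chr9:107747243-107747492, minus strand): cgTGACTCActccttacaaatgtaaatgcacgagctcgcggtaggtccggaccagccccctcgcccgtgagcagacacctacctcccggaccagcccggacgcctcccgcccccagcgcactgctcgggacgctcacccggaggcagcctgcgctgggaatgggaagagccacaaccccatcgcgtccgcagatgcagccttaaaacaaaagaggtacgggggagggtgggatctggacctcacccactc
MMP3 (chr9:33453996-33454245, minus strand): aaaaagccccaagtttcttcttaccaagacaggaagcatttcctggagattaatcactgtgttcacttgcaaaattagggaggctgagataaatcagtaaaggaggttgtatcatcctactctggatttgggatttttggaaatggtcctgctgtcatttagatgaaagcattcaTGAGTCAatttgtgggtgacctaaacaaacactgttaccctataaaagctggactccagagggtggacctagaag
COL28A1 (chr9:77841940-77842189, minus strand): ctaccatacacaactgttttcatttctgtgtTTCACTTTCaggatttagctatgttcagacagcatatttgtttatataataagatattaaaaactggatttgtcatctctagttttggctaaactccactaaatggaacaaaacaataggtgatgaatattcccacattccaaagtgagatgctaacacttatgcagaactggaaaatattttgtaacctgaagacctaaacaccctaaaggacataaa
ADAMTS6 (chr16:44010821-44011070, minus strand): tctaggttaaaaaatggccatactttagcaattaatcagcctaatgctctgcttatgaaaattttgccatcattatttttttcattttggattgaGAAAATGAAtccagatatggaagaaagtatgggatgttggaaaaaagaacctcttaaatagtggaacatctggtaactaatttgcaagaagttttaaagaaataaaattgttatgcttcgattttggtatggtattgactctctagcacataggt
ADAMTS12 (chr16:19920781-19921030, minus strand): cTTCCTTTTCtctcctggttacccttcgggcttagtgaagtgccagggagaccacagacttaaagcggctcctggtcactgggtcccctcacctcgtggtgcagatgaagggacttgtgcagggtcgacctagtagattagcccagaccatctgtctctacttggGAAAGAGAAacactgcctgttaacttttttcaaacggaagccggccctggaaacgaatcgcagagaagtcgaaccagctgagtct
MMP20 (chr9:33308048-33308297, minus strand): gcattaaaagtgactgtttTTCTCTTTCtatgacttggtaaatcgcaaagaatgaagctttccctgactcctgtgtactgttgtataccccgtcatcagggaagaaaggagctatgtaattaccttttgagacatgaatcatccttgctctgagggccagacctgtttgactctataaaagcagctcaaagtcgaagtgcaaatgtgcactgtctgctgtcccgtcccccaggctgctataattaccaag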

How the data were processed

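Nuclei of 8 retinas were profiled with 10x GEM-X 3' v4 chemistry, 4 lanes per retina. The authors deposited raw UMI counts per gene and barcode, 1 matrix per lane, made with Cell Ranger 8.0.0 on Sscrofa11.1 according to the submitters' processing notes. Lanes were pooled per retina. Barcodes with a mitochondrial share whose mixture posterior was above 0.75 were dropped, and no doublets were removed. Nuclei were assigned to classes by multinomial profiles seeded from fixed markers (lead of at least 10 log-likelihood units), without the genes described, mitochondrial genes, EGFP and 562 genes that differed 2-fold or more between arms. This scoring rule was set after the data were seen. The genes and lists were chosen with earlier results of these data known. The list of protease control genes is not reported here.

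Counts were summed per retina and class and tested with edgeR 4.0.16 (quasi-likelihood, TMM, filterByExpr, adjusted p under 0.05 over all genes, R 4.3.3). Müller and PAX2+ nuclei of vehicle-injected animals were compared with the animal as a block. The eyes of a week 2 animal were summed as 1 sample in fits over animals. The genes named were the TIMPs, the up to 10 genes each way with the largest non-overlapping change past the threshold in Müller and in PAX2+ nuclei and up to 3 each way in other classes, the highest vehicle level of each role, the 5 genes called in the most classes and the 5 largest each way between the glial classes; others named (week 2, both weeks, and further members of a family) were chosen after their values were seen. For genes named by the size of their change, arms that did not overlap were a condition, so this adds no support for them. Alternatives were DESeq2 1.42.0, library sizes only, other filters and gates, and leaving out each retina. On simulated counts for the week 4 comparison in Müller nuclei (18015 genes), 36% of 2-fold and 79% of 4-fold changes were recovered, with 12 unchanged genes among 127 calls. In PAX2+ nuclei (11800 genes), the shares were 29% and 87%, with 6 among 122. Each simulation changed 100 genes at each fold. The real fits called far more, at 11.8% higher and 11.6% lower in Müller and 7.64% and 6.43% in PAX2+ nuclei. The adjustment depends on the share of changed genes, so the simulated shares do not describe the real fits. Counting intervals and the low counts they describe cover counting error only, and the intervals take each UMI as independent.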

Additional observations from a re-analysis of the deposited data

Results flagged for a closer look

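The AAV effect differed between week 2 and week 4 for 9 gene and class pairs, by the interaction of treatment and week over 6 animals (edgeR's quasi-likelihood test, Benjamini-Hochberg adjustment). The values are week 4 minus week 2 differences of log2 fold changes, and with 1 animal per arm at week 2 they rest on the spread of the week 4 animals. In Müller nuclei they were 1.80 for COL9A1, 1.41 for ADAMTS15, 1.40 for COL4A5, -1.82 for COL18A1 and -3.67 for COL10A1, the last of which was not past the threshold with library sizes only (adjusted p = 0.0535). In PAX2+ nuclei they were -2.55 for COL9A3 and 1.92 for TIMP3. In myeloid nuclei the value was -3.40 for ADAMTS10, and in RGCs 1.62 for COL24A1, which was not past the threshold with DESeq2 (adjusted p = 0.0626). The alternatives for these differences were chosen after seeing the data. The cause of these differences was not tested.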

How the results depend on the processing

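With DESeq2 the genes higher in PAX2+ nuclei at week 4 numbered 7, in amacrine nuclei 2, in rods 5 and in RGCs 1, the genes lower in cones 3 and in RGCs 0, and 22 were called in Müller nuclei over both weeks. With no filter beyond 1 UMI, 19 were higher in PAX2+, 4 in amacrine, 2 in myeloid and 7 in rod nuclei, and 11 were lower in amacrine, 6 in cone, 10 in horizontal, 7 in myeloid and 20 in rod nuclei; more genes enter the test under it. The stricter gate gave 3 lower in amacrine and 2 in bipolar nuclei. At week 2 in Müller nuclei the left eyes alone gave 4 higher, 3-fold gave 5 higher and 2 lower, and all 3 vehicle-injected animals as control gave 3 lower. Among all genes considered these were 994 of 17976, then 728 and 237 of 20609, and 716 of 21765. In PAX2+ nuclei 3-fold gave 1 higher and 2 lower, and the left eyes alone and all 3 vehicle-injected animals gave 3 lower each. Among all genes considered these were 256 and 173 of 13981, then 472 of 12102 and 440 of 15205. Without the week 2 animals the fit over both weeks is the week 4 test itself, with its 28 calls in Müller and 15 in PAX2+ nuclei. For the other settings, and for the fits below that left out a retina, shares of all genes are not given here. Those counts therefore cannot tell a move of the set from a move of all genes. Where not stated, the cause was not tested.

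Leaving out 1 retina at a time gave 11 to 18 genes higher and 8 to 12 lower at week 4 in Müller nuclei, 9 to 17 and 3 to 5 in PAX2+, 1 to 3 and 2 to 6 in amacrine, 1 to 6 and 0 to 8 in bipolar, 0 to 1 and 1 to 3 in cone, 2 to 3 and 0 to 7 in horizontal, 0 to 0 and 2 to 3 in myeloid, 2 to 3 and 0 to 2 in RGC and 1 to 5 and 4 to 12 in rod nuclei. Over both weeks 2 to 6 were called in Müller and 0 to 1 in PAX2+ nuclei, and 22 to 23 were higher and 17 to 21 lower in Müller than in PAX2+ nuclei. For the genes named, 332 of these fits kept the call and 86 lost it, other settings kept 918 and lost 60, and 0 turned the direction. No paired analysis was possible because the labels pair no AAV-injected with a vehicle-injected animal, the week 4 numbers being given in accession order. Myeloid nuclei numbered 92 to 102 per vehicle-injected retina and PAX2+ nuclei 143 to 471 per retina, which limits the precision of their values.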
